A study of Mus musculus with 20 samples.

Results

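Collagens that do not build the main fibrils were examined in mouse heart ventricles after hormone treatment. The 7 genes were taken by name, with earlier results of these data known. These were Col14a1, Col12a1, Col8a1, Col6a1, Col6a2, Col6a3 and Col15a1, of 18193 genes that have a probe set with 1 unambiguous symbol on the array. They are measured by 15 probe sets of 45037 without the array's controls. A probe set is a group of short probes, and each of the 15 is annotated to 1 of these genes. The gene names rest on the platform annotation, and all 7 gene IDs matched the reference gene table.

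The 20 arrays hold 1 ventricle sample each, from female C57BL/6 mice ovariectomized at 8 weeks of age, so that every group lacks the ovaries, the main source of circulating estrogen. An implanted minipump then delivered the treatment for 4 weeks. The 4 groups of 5 samples are 16α-LE2 (a lactone derivative of estradiol that the labels call an agonist of estrogen receptor α), 17β-estradiol, a group titled beta whose treatment label reads control solution, and placebo. Because the title and the treatment label of the beta-titled group disagree, it was kept apart from placebo. The sources used here give no doses, so 16α-LE2 and estradiol are matched here in duration, while their relative dose is unknown. The labels number the samples but do not tie each to an animal, so the p-values measure the spread between these samples.

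In the heart the tensile strength of the matrix comes from fibrils of types I and III collagen, laid down mainly by fibroblasts. Types XII and XIV, encoded by Col12a1 and Col14a1, are fibril-associated collagens that sit on the fibril surface and link it to neighbouring matrix. The Col6a1, Col6a2 and Col6a3 chains assemble together into type VI collagen, a beaded filament network around cells and near basement membranes. Col8a1 encodes a chain of type VIII collagen, a short network-forming collagen known from vessel walls, and Col15a1 encodes type XV collagen, which lies next to the basement membranes of muscle cells and capillaries.

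Levels of cardiomyocyte genes were looked at first. The 8 genes listed as ventricular markers had mean log2 values from 12.38 for Ryr2 to 14.74 for Myl2, near the top of the range of 5.07 to 15.31. Most of these genes are not restricted to the ventricle, so their levels do not check the ventricle label. The atrial markers had means of 12.18 for Nppa, 9.92 for Myl4, 9.18 for Myl7 and 8.11 for Sln. Atrial markers differed widely between arrays of 1 group. The mean of the 4 (Myl7, Myl4, Sln and Nppa) was centred on the mean of all arrays. It ran from −1.37 to 0.81 in 16α-LE2, −0.48 to 1.76 in estradiol, −0.94 to 0.79 in the beta-titled group and −0.63 to 0.49 in placebo. Estradiol replicate 33 stood apart, with Spearman correlations to the other arrays of 0.922 to 0.941, against 0.978 to 0.992 among the rest. It is in every fit unless stated otherwise.

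Of the 7 genes, 6 lay above the expression filter (a mean log2 value of 6.93, the median of all probe sets) and were tested among 12082 genes. Each was represented by its probe set of highest mean. All 4 probe sets of Col12a1 lay below the filter, with means from 5.87 to 6.72. Of the 15 probe sets, 9 were above the filter.

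Col14a1 was low in every 16α-LE2 ventricle. Its probe set 1427168_a_at had log2 values of 7.04, 7.01, 6.94, 6.88 and 6.86 in the 16α-LE2 samples. In the estradiol samples it had 7.32, 7.46, 7.49, 7.66 and 7.97. In the beta-titled samples it had 7.64, 7.51, 7.46, 7.49 and 7.50, and in the placebo samples 7.54, 7.37, 7.81, 7.19 and 7.69. The highest 16α-LE2 value lay below the lowest value of each other group, while estradiol, beta-titled and placebo samples overlapped one another. The group means were 6.94 ± 0.08 with 16α-LE2, 7.58 ± 0.25 with estradiol, 7.52 ± 0.07 in the beta-titled group and 7.52 ± 0.25 with placebo (SD, n = 5 each). The 16α-LE2 mean lies just above the expression filter, and the 16α-LE2 samples at 6.88 and 6.86 lie below it.

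Col14a1 fell with 16α-LE2 against placebo by 0.57 ± 0.11 on the log2 scale (SE), a 1.49-fold lower level, with a limma adjusted p of 0.0175 over all 12082 genes. Relative to estradiol Col14a1 was lower as well, with a log2 difference of −0.64 ± 0.11 (limma adjusted p = 0.027), where it ranked 1 of 12082 genes by p. Against the beta-titled group the log2 difference was −0.58 ± 0.11 (limma adjusted p = 0.0161). These comparisons share the 16α-LE2 arrays, so they are not separate evidence. Estradiol minus placebo gave 0.06 (95% interval −0.16 to 0.28, limma adjusted p = 0.772), and beta-titled minus placebo gave 0.00 with an interval from −0.21 to 0.22. The call against placebo was lost without 16α-LE2 replicate 33 (adjusted p = 0.0668) or 34 (0.0511) and without placebo replicate 31 (0.065) or 33 (0.057). The call against estradiol was lost without 16α-LE2 replicate 30, 32, 33 or 34 or estradiol replicate 30, 34 or 35 (adjusted p from 0.0596 to 0.158) and when only these 2 groups entered the fit (0.073), and it held without estradiol replicate 33 (0.0489). The call against the beta-titled group was lost without 16α-LE2 replicate 30, 32, 33 or 34 or beta-titled replicate 31 or 32 (adjusted p from 0.0518 to 0.0688).

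A second Col14a1 probe set, 1428455_at, had log2 values of 6.83, 6.78, 6.75, 6.78 and 6.83 with 16α-LE2, against 6.96, 6.99, 7.07, 6.87 and 7.16 with placebo. Here too the groups did not overlap, although the difference was smaller, at −0.22 ± 0.07 SE. The 16α-LE2 mean of 1428455_at, 6.79, lies below the expression filter, which this probe set passed through the other groups. Its lack of overlap is therefore not read as support. The difference of 1428455_at did not pass over all 45037 probe sets (limma adjusted p = 0.442), whereas that of 1427168_a_at did (0.0355). The third, 1453931_at, lay at a mean of 6.14, a level that 11.2% of probe sets lie below, and had a difference of 0.05 ± 0.05 SE. Over the 20 arrays the first pair of probe sets had a Pearson correlation of 0.90, and one of 0.84 after the group means were removed.

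The other fibril-associated member, Col12a1, gave low values throughout. Its probe set of highest mean, 1427391_a_at, ran from 6.68 to 6.86 with 16α-LE2, 6.29 to 6.84 with estradiol, 6.71 to 6.91 in the beta-titled group and 6.59 to 6.76 with placebo, and all groups overlapped. The lowest of these, 6.29, is that of estradiol replicate 33. The 4 Col12a1 probe sets had differences between 16α-LE2 and placebo from −0.03 to 0.09 with limma adjusted p from 0.754 to 0.952. A background level was not measured here, and no change in Col12a1 was detected in these probe sets.

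Col8a1 was the other member that passed, and it too was low in the 16α-LE2 ventricles. Its probe set 1455627_at had log2 values of 7.90, 8.06, 8.40, 7.82 and 8.14 in the 16α-LE2 samples. In the estradiol samples it had 8.67, 8.68, 8.00, 8.40 and 8.76, where 8.00 is that of replicate 33. In the beta-titled samples it had 8.88, 8.92, 8.84, 8.83 and 8.88, and in the placebo samples 9.08, 8.65, 9.16, 8.44 and 8.53. All 16α-LE2 samples lay below all placebo and all beta-titled samples, and the estradiol samples lay between, overlapping 16α-LE2 and placebo but below every beta-titled sample.

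Col8a1 fell by 0.71 ± 0.15 on the log2 scale (SE) with 16α-LE2 against placebo, a 1.63-fold lower level (limma adjusted p = 0.0323). Relative to the beta-titled group the difference was −0.81 ± 0.15, or 1.75-fold (limma adjusted p = 0.0156). Against estradiol it was −0.43 (95% interval −0.73 to −0.13) and missed the threshold (limma adjusted p = 0.699), and −0.56 without estradiol replicate 33 (0.211). Estradiol minus placebo gave −0.27 ± 0.15 (limma adjusted p = 0.499), and −0.148 without that array. The call against placebo was the less stable one: it was lost after quantile normalization (−0.625, adjusted p = 0.0794), with only these groups in the fit (0.0659), with the mean of the gene's probe sets (−0.328, 0.0812) and without 16α-LE2 replicate 29, 30, 33 or 34 or placebo replicate 31, 32 or 33 (0.0518 to 0.162). The call against the beta-titled group was lost without 16α-LE2 replicate 30 or 33 or beta-titled replicate 31 or 32 (0.0535 to 0.0653).

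Of the other Col8a1 probe sets, 1418440_at had 7.02, 7.06, 7.17, 6.91 and 7.09 with 16α-LE2, against 7.34, 7.44, 7.49, 7.14 and 7.29 with placebo. Only the highest 16α-LE2 and the lowest placebo sample overlapped. The difference of −0.29 ± 0.09 SE did not pass over all 45037 probe sets (limma adjusted p = 0.405), nor did that of 1455627_at on this wider scale (0.0652). In the comparison with the beta-titled group 1455627_at passed (0.0392) and 1418440_at did not (−0.42 ± 0.09 SE, limma adjusted p = 0.103), with all 16α-LE2 samples below all beta-titled samples in both. Probe set 1418441_at, at a mean of 6.16, a level that 12.1% of probe sets lie below, had a difference of 0.01 ± 0.04 SE from placebo.

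**Figure D1:**
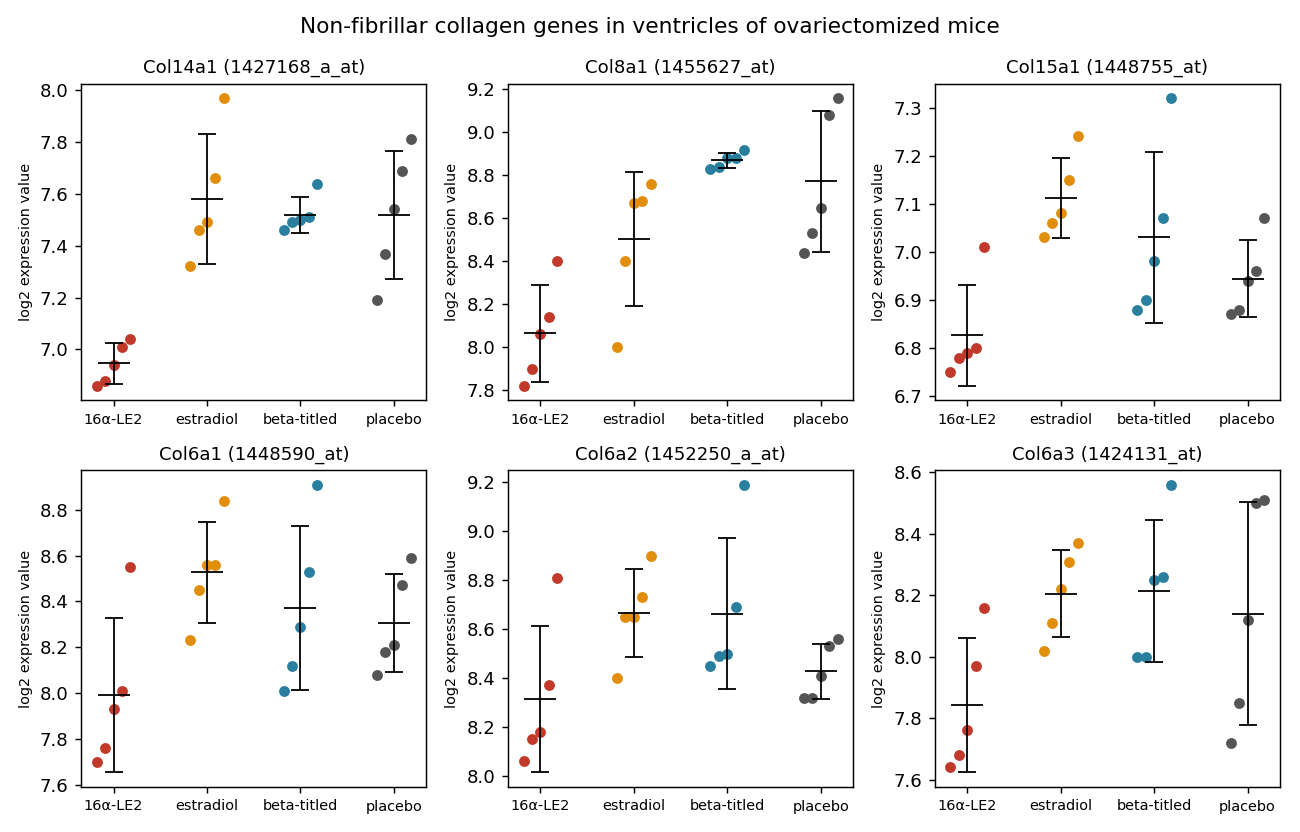
Log2 expression values of the 6 tested genes in each sample (points), with the group mean and SD (horizontal line and bar, n = 5 each), for 16α-LE2, estradiol, beta-titled and placebo ventricles. The 16α-LE2 points of Col14a1 (6.86 to 7.04) lie below all points of the other groups, while those of Col6a1, Col6a2, Col6a3 and Col15a1 overlap placebo.

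No type VI chain separated the 16α-LE2 ventricles from the placebo ventricles. Col6a1 had log2 values of 8.55, 7.93, 8.01, 7.76 and 7.70 with 16α-LE2, against 8.47, 8.59, 8.21, 8.08 and 8.18 with placebo. Its estradiol values were 8.23, 8.56, 8.45, 8.84 and 8.56, and its beta-titled values were 8.91, 8.53, 8.12, 8.29 and 8.01. In 16α-LE2 replicate 29 alone the level, 8.55, lay within the upper part of the placebo range, and the other 16α-LE2 samples lay below every placebo sample. The difference between 16α-LE2 and placebo was −0.31 ± 0.16 SE, and its 95% interval ran from −0.65 to 0.02 (limma adjusted p = 0.591), and −0.455 without 16α-LE2 replicate 29 (0.314).

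Col6a2, the next protein-coding gene along chromosome 10, had log2 values of 8.81, 8.37, 8.06, 8.18 and 8.15 with 16α-LE2, against 8.53, 8.56, 8.32, 8.32 and 8.41 with placebo. Estradiol samples had 8.40, 8.73, 8.65, 8.90 and 8.65, and beta-titled samples 9.19, 8.69, 8.45, 8.50 and 8.49. Again 16α-LE2 replicate 29 was the highest of its group, above every placebo sample. The difference from placebo was −0.11 ± 0.14 SE, and its interval ran from −0.40 to 0.17 (limma adjusted p = 0.883), and −0.237 without that array (0.712). The other Col6a2 probe set, 1426947_x_at, gave −0.08 ± 0.11 SE.

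Col6a3, the longest of the type VI chains, had log2 values of 8.16, 7.64, 7.97, 7.68 and 7.76 with 16α-LE2, against 8.50, 8.12, 8.51, 7.72 and 7.85 with placebo. Its estradiol values were 8.02, 8.11, 8.22, 8.31 and 8.37, and its beta-titled values 8.56, 8.25, 8.26, 8.00 and 8.00. The placebo samples had values from 7.72 to 8.51, 3 of the 16α-LE2 samples lay within that range and the other 2 below it. The difference from placebo was −0.30 ± 0.14 SE, and its interval ran from −0.59 to 0.00 (limma adjusted p = 0.555). No type VI chain passed in any of the 6 comparisons.

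Relative to estradiol the type VI chains had log2 differences with 16α-LE2 of −0.54 ± 0.16 for Col6a1, −0.35 ± 0.14 for Col6a2 and −0.36 ± 0.14 for Col6a3 (SE), with limma adjusted p of 0.553 and, for the last pair, 0.875. Their 95% intervals ended at −0.20, −0.06 and −0.07, so each excluded 0 taken by itself, and none held after adjustment over all genes. Estradiol minus placebo gave 0.22 ± 0.16, 0.24 ± 0.14 and 0.07 ± 0.14 for the same genes (limma adjusted p from 0.503 to 0.824).

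Col15a1, with a mean just above the filter at 6.98, had log2 values of 7.01, 6.80, 6.75, 6.78 and 6.79 with 16α-LE2, against 6.94, 7.07, 6.96, 6.88 and 6.87 with placebo. In the estradiol samples it had 7.03, 7.06, 7.15, 7.24 and 7.08, all above the highest 16α-LE2 sample. In the beta-titled samples it had 7.32, 7.07, 6.88, 6.90 and 6.98. Relative to estradiol the log2 difference with 16α-LE2 was −0.29 ± 0.07 SE with an interval from −0.44 to −0.13. It ranked 23 of 12082 genes by p and did not pass (limma adjusted p = 0.414). The difference from placebo was −0.12 ± 0.07 SE (limma adjusted p = 0.677), and estradiol minus placebo was 0.17 ± 0.07 SE (0.499). The order of the 16α-LE2, placebo, beta-titled and estradiol means, 6.83, 6.95, 7.03 and 7.11, is therefore not settled between neighbours.

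Members were chosen with earlier results of these data known. The shares over all genes or probe sets are therefore given for scale and are no independent support. Counted over the 6 tested members, 2 passed with 16α-LE2 against placebo, both lower, where 0.199% of all tested genes were called lower. The same 2, Col14a1 and Col8a1, did not overlap between the groups, where 2.70% of all genes lay below placebo without overlap. All 6 members had a negative difference, as did 59.7% of all genes, and their median was −0.31 against −0.03 over all genes. With 16α-LE2 against estradiol 1 member was called lower (Col14a1), at a background of 0.0166%. In that comparison 2 members, Col14a1 and Col15a1, did not overlap (0.588% of all genes), all 6 had a negative difference (56.3%), and their median was −0.40 against −0.02 over all genes. The 16α-LE2 mean of Col15a1, 6.83, lies below the filter, which this gene passed through the other groups, so its place in these counts is not read as support. With 16α-LE2 against the beta-titled group 2 members were called lower, at a background of 0.0993%. The same 2 did not overlap (1.28%), all 6 had a negative difference (48.1%), and their median was −0.38 against 0.00 over all genes. In estradiol minus placebo no member passed limma, nor did any other gene (0% called), and 1 member, Col15a1, had an unadjusted p under 0.05, as did 9.63% of all genes. The member median there was 0.12. In estradiol minus the beta-titled group no member passed limma (0% called over all genes), and Col8a1 alone had an unadjusted p under 0.05 (0.0174), as did 3.83% of all genes, and alone did not overlap, as did 0.149%. In beta-titled minus placebo no member passed limma (0% called), and no member had an unadjusted p under 0.05, as did 5.70% of all genes.

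Over all 15 probe sets 1 was called lower against placebo (0.0400% of all probe sets), 1 against estradiol (0.00444%) and 2 against the beta-titled group (0.0266%), each a probe set of Col14a1 or Col8a1.

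**Figure D2:**
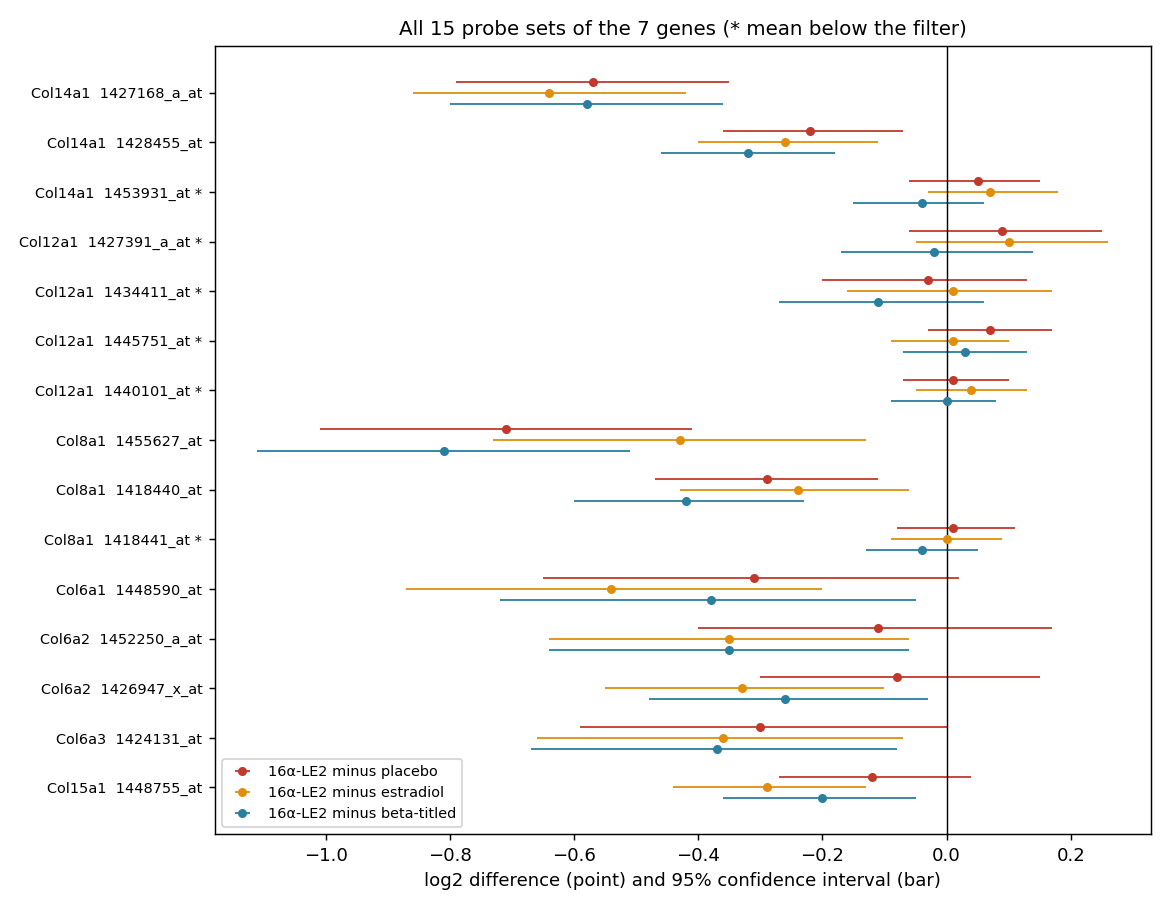
Log2 differences of 16α-LE2 from placebo, estradiol and beta-titled ventricles (points) with 95% confidence intervals (bars) for the 15 probe sets, from the fit over all 45037 probe sets. From placebo the largest differences are those of 1455627_at (Col8a1, −0.71) and 1427168_a_at (Col14a1, −0.57), and the starred probe sets below the filter lie around 0.

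The members varied together to different degrees. Across the 20 arrays, which each give a value of both genes, Col6a1 and Col6a2 had a Pearson correlation of 0.90 (Spearman 0.89), and 0.91 after group means were removed. Col15a1 followed the same pattern, at 0.90 with each of them and at 0.85 and 0.89 within groups. Beta-titled replicate 31 was the highest array for all 4 of Col6a1, Col6a2, Col6a3 and Col15a1, and 16α-LE2 replicate 29 was the highest of its group for the same 4 genes. Col6a3 was looser, at 0.75 with Col6a1 and 0.64 with Col6a2. Col14a1, by 1427168_a_at, correlated at 0.62 with Col6a1, 0.53 with Col6a2, 0.72 with Col6a3 and 0.62 with Col15a1. Within groups these were 0.33, 0.31, 0.57 and 0.25.

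For Col8a1 the correlations depended on the probe set. Probe set 1455627_at correlated at 0.34 with Col6a1 and 0.21 with Col6a2, and at 0.02 and −0.17 within groups. Probe set 1418440_at correlated at 0.61 with Col6a1, 0.52 with Col6a2 and 0.57 with Col15a1, and at 0.52, 0.34 and 0.42 within groups. With Col6a3 the Col8a1 probe sets correlated at 0.62 and 0.65. In 16α-LE2 replicate 29, where the type VI chains were high, Col8a1 1455627_at stood at 7.90, the second lowest of its group, while Col14a1 stood at 7.04, the highest of its group. Col14a1 and Col8a1 correlated at 0.70 over all arrays and at 0.37 within groups, so much of the pooled value is the shared low level in the 16α-LE2 group. These correlations describe these arrays and carry no test.

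**Figure D3:**
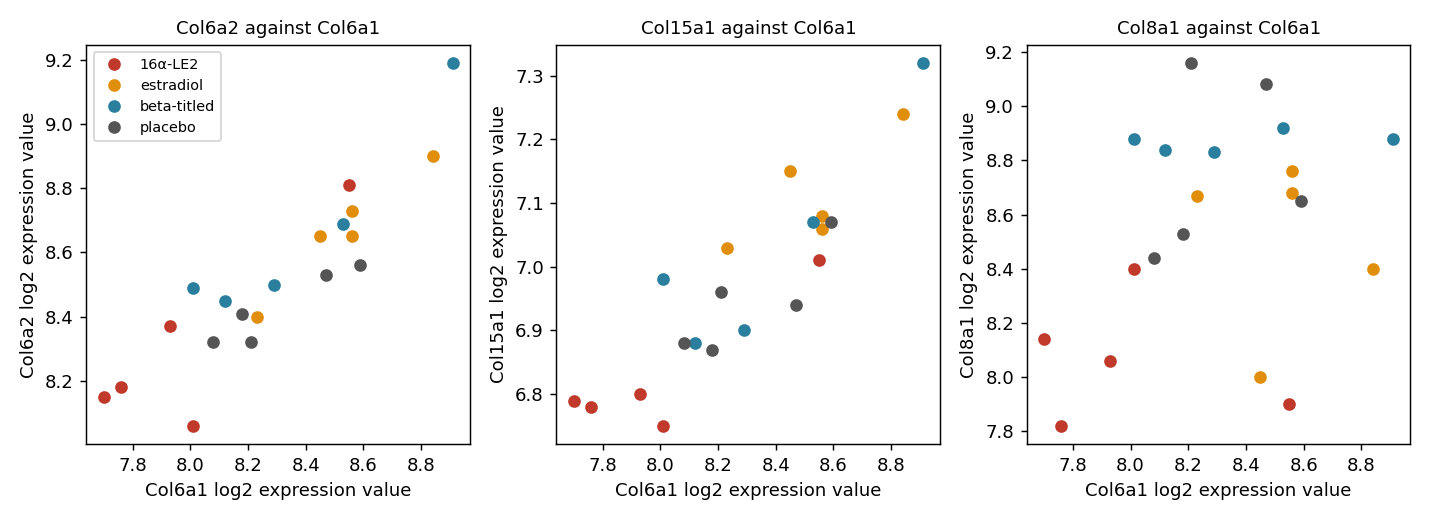
Log2 expression values of Col6a2, Col15a1 and Col8a1 (vertical axes) against Col6a1 (horizontal axes), 1 point per array, coloured by group. Col6a2 and Col15a1 lie along a line with Col6a1 (correlation 0.90 each), while Col8a1, by probe set 1455627_at, is spread more widely (0.34; probe set 1418440_at, not drawn, gave 0.61).

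The starts of the genes that varied together most closely are shown with that of Col8a1, from RefSeq (build GRCm38.p6). Each window runs from 250 bases before to 50 bases after the annotated start, 5′ to 3′ on the gene's own strand, and capitals mark matches to the GC box GGGCGG, the TATA box TATAAA or the AP-1 site TGANTCA on either strand. Of the 7 genes 5 had an entry, and Col14a1 and Col12a1 are named only. For Col6a2, which has more than 1 listed start, 1 window is shown.
Col6a1: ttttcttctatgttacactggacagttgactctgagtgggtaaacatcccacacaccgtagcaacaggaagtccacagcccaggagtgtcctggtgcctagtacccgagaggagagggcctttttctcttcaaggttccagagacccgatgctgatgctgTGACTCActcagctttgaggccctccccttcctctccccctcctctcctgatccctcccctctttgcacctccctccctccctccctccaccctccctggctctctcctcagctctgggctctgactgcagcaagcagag
Col6a2: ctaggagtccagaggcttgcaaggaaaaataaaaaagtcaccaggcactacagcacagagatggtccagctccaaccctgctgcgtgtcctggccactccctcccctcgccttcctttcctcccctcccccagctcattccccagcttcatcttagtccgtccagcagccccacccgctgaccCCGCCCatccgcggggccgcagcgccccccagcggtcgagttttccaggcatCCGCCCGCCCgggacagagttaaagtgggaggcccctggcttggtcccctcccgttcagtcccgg
Col15a1: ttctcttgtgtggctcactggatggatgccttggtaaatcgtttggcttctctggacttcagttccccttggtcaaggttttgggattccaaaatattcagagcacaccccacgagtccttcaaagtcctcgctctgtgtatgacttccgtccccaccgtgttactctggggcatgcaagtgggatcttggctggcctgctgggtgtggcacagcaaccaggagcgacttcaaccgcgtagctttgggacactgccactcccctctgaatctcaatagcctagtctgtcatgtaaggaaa
Col8a1: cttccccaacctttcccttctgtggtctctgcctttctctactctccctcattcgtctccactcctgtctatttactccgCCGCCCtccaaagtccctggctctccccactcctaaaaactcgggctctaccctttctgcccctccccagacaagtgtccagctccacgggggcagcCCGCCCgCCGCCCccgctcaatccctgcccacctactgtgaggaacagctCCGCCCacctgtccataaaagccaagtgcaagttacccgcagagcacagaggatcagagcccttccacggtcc
The windows lie at chr10:76725995-76726294 on the minus strand for Col6a1, chr10:76623355-76623654 on the minus strand for Col6a2, chr4:47207762-47208061 on the plus strand for Col15a1 and chr16:57754688-57754987 on the minus strand for Col8a1.

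Col8a1 held 4 matches to the GC box and the shown Col6a2 window held 3, of which 2 overlap. The other Col6a2 start held 1, and 35.7% of 32851 promoters of this length hold at least 1. Col6a1 held 1 match to the AP-1 site, which 7.81% of promoters hold. Col15a1 and Col6a3, whose window is not shown, held none of the marked motifs. The full estrogen response element (GGTCA and, 3 bases on, its reverse complement) was not found in any of these windows, nor in that of Col6a3 or the other Col6a2 start, and 0.07% of promoters hold it. The element's GGTCA unit alone, read on both strands, was found 1 time each in Col15a1 and in the shown Col6a2 window, and 40.5% of promoters hold it. A match is a match of letters, and its absence says nothing about sites elsewhere.

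Genes with the most similar pattern over the 20 arrays were listed for each tested member by Pearson correlation. For Col14a1 these were Serpinf1, a secreted serpin (0.88), Islr (0.87) and Fndc1 (0.84), at 0.67, 0.78 and 0.71 within groups. For Col8a1 they were Ppic, a cyclophilin (0.91), Postn, the matricellular protein periostin (0.89), and Fstl1, a secreted follistatin-like glycoprotein (0.88), at 0.80, 0.73 and 0.62 within groups. Col6a1 was followed by Col6a2, Col15a1 and Loxl1, a crosslinking enzyme of elastic fibres (0.89), and Col6a2 by Col6a1, Col15a1 and Col5a1 (0.87). Col6a3 was nearest to Col5a1, a chain of the fibrillar type V collagen (0.85), Nid2, a basement membrane nidogen (0.84), and Fn1, fibronectin (0.84). Col15a1 was nearest to Col6a2, Col6a1 and Igfbp5, an insulin-like growth factor binding protein (0.81). Without the 2 arrays farthest from each member's median these values ran from 0.69 (Col15a1 with Igfbp5) to 0.92 (Col8a1 with Ppic).

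Other collagen classes were counted in the same fit, where 0.199% of all tested genes were called lower with 16α-LE2 against placebo. Of 7 tested fibrillar collagens 2 fell with 16α-LE2 against placebo: Col3a1 was 2.79-fold lower (limma adjusted p = 0.0011) and Col5a2 1.57-fold lower (0.0147). The median of the class was −0.12, and the chains of type I collagen did not pass, with Col1a1 at −0.11 ± 0.09 SE (limma adjusted p = 0.754) and Col1a2 at −0.60 ± 0.16 SE (0.134). None of 5 tested type IV collagens passed, with Col4a1 at −0.61 ± 0.18 SE (limma adjusted p = 0.173) and Col4a2 at −0.19 ± 0.20 SE. None of the 4 other tested fibril-associated collagens passed, with a median of 0.03 and a range from −0.01 to 0.08, and Col9a1 and Col9a2, chains of cartilage type IX collagen, stood at 0.08 ± 0.10 and 0.05 ± 0.12 SE. Col18a1, the closest relative of Col15a1, stood at −0.03 ± 0.06 SE and Col6a4, a further type VI chain gene, at −0.03 ± 0.10 SE. The 1 tested transmembrane collagen, Col25a1, stood at −0.01 ± 0.07 SE. Against the beta-titled group Col3a1 was 2.97-fold lower with 16α-LE2 (limma adjusted p = 0.00042) and Col5a2 1.57-fold lower (0.0156). Whether the members differ from these classes was not tested.

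Proteins that bind or process these collagens were counted next, with the same 0.199% of all tested genes called lower against placebo. Of 14 tested matrix partners 1 passed: Nid1, a nidogen that bridges basement membrane networks, was 1.44-fold lower with 16α-LE2 than with placebo (limma adjusted p = 0.0445). All 14 had negative differences, as did 59.7% of all tested genes, with a median of −0.22 against −0.03 over all genes. Of 14 tested processing and turnover genes, Mmp2, a gelatinase, fell 1.56-fold (limma adjusted p = 0.0175) and was 1.52-fold lower against the beta-titled group (0.0326), with a list median of −0.11. None of 7 tested cell surface receptors passed. Itga1, a collagen-binding integrin subunit, lay nearest, at −0.39 ± 0.08 SE (limma adjusted p = 0.0545), then Ddr2, a fibroblast receptor for fibrillar collagen, at −0.28 ± 0.08 SE (0.175), and the receptor median was −0.28. Against estradiol no gene of these lists or of the collagen classes other than Col14a1 passed. Among the fibrillar collagens Col3a1 only just missed the threshold there, at −1.12 ± 0.20 SE (limma adjusted p = 0.0502).

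**Figure D4:**
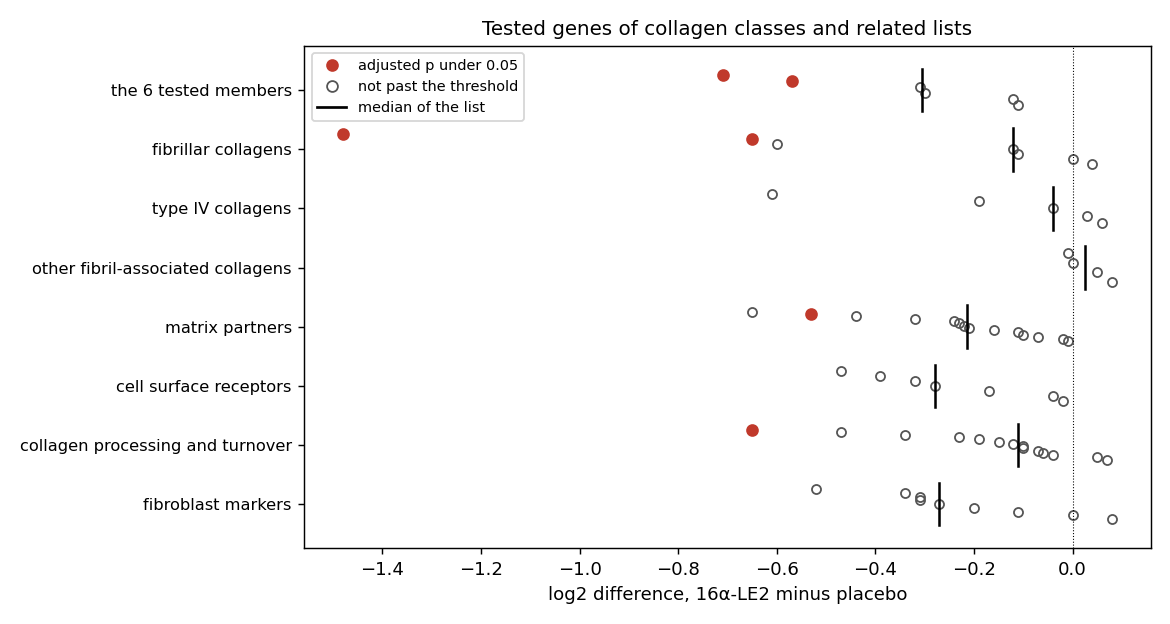
Log2 differences of 16α-LE2 from placebo for each tested gene (points) of the members, other collagen classes, binding and processing genes and fibroblast markers. Filled points passed the adjusted threshold of 0.05, and black lines are list medians, at −0.31 for the members, −0.12 for fibrillar collagens and −0.28 for receptors.

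Markers of fibroblasts and other cell types were compared in the same fit. Of all tested genes 59.7% had a negative difference between 16α-LE2 and placebo, with a median of −0.03. Of 9 fibroblast markers 8 had a negative difference between 16α-LE2 and placebo, with a median of −0.27 and none past the threshold. Their mean level per array, centred on all arrays, was −0.24 to −0.02 with 16α-LE2 and −0.25 to 0.27 with placebo, so these overlapped. Of 8 endothelial markers 7 were negative (median −0.32, −0.43 to 0.10 per array with 16α-LE2 and −0.05 to 0.35 with placebo), as were 5 of 8 smooth muscle and pericyte markers (median −0.20, −0.23 to 0.05 with 16α-LE2 and −0.06 to 0.13 with placebo), and none passed. The markers of smallest p in these lists were Tek, an endothelial receptor, at −0.57 ± 0.14 SE (limma adjusted p = 0.0788), Mfap5, a fibroblast microfibril gene, at −0.52 ± 0.15 SE (0.175), and Cldn5, an endothelial junction gene, at −0.88 ± 0.27 SE (0.233). All 4 tested red blood cell genes were positive, at 0.03 to 1.02 per array with 16α-LE2 and −0.29 to 0.11 with placebo, and Slc4a1 passed (limma adjusted p = 0.0256). Macrophage markers had a median of 0.01 (−0.06 to 0.21 with 16α-LE2 and −0.49 to 0.65 with placebo), and 4 of 5 mesothelial markers and both adipocyte markers with a probe set lay below the filter. The part of these marker differences in the collagen differences was not tested, and in whole ventricle RNA fewer cells of a type and less RNA per cell cannot be told apart.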

How the data were processed

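Total RNA of 20 ventricle samples was labelled from 100 ng and hybridised to Affymetrix mouse arrays, per the labels' protocols. The authors deposited 1 log2 value for each of 45101 probe sets and array. The log2 scale was read from the values, and a difference of 1 is taken as 2-fold on that reading. No source used here gives the summarization, background correction or normalization, and no background level was measured. After 64 controls were left out, 34945 probe sets had 1 gene symbol, 932 several and 9160 none. Samples were grouped by title.

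All 20 arrays were fitted with limma 3.58.1 in R 4.3.3 (group means, eBayes with an intensity trend), with Benjamini-Hochberg adjustment over 12082 genes or, without a filter, over 45037 probe sets, at a threshold of 0.05. A gene passed the filter with a probe set mean above 6.93 and took its probe set of highest mean. The median half-width of a 95% interval was 0.21 log2 units, a precision limited by the number of arrays. Named genes were the members, the 3 nearest to each by correlation, and from each pathway list those called or, where none was, the 2 of smallest p. Genes named besides these, such as Col1a1, Col1a2 and single markers of cell types, were chosen after their values were seen. The members and lists were chosen with earlier results of these data known. The fit was run on simulated data with independent genes and the same spread in all groups. In the real arrays the median SD over all tested genes was 0.1 with 16α-LE2 and 0.2 with estradiol. The simulation therefore does not check the fit under unequal spreads. Alternatives covered the filter, probe set summary, scaling, weights, groups in the fit, replicate block, pooled controls, threshold and leaving out each array. Figures were drawn with matplotlib 3.10.9.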

Additional observations from a re-analysis of the deposited data

Results flagged for a closer look

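Of 24 groups of 5 values (6 tested members in 4 groups), 2 had a sample far from the others by Dixon's test, and chance gives about 1 in 20. Col15a1 stood at 7.01 in 16α-LE2 replicate 29, against 6.80 for the next highest 16α-LE2 sample. Col14a1 stood at 7.64 in beta-titled replicate 31, against 7.51 for the next highest beta-titled sample. The same arrays were the highest of their groups for Col6a1, Col6a2 and Col6a3.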

How the results depend on the processing

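The difference of Col14a1 kept its negative sign in all 29 alternatives run against placebo (−0.656 to −0.501) and all 28 against estradiol (−0.702 to −0.54), and Col8a1 in all 31 against placebo (−0.792 to −0.328). Many of these alternatives could not change the sign. Another threshold, no intensity trend or leaving out an array of a group not compared changes the p-value at most and leaves the difference as it was. The number of members called, 2 against placebo, was 1 with a mean above 8, after quantile normalization and with only the 2 groups compared, and 0 with the mean of probe sets. Against estradiol, where it was 1, it was 0 with a mean above 8, with the mean of probe sets and with only the 2 groups compared. Against the beta-titled group, where it was 2, it was 1 with a mean above 8 and with the mean of probe sets. A mean above 8, and the mean of its probe sets, leave Col14a1 out of the genes tested. Leaving out each array in turn gave 0 to 2 members against placebo, 0 to 1 against estradiol and 0 to 2 against the beta-titled group. Member probe sets called, 1 against placebo, numbered 2 above the filter, 2 at an adjusted p under 0.1, 3 with array weights and 0 after quantile normalization or with only 2 groups. Against estradiol, where 1 was called, 0 were called above the filter, after quantile normalization, median centring, with only 2 groups or with the replicate block. Against the beta-titled group, where 2 were called, 0 were called after median centring and 4 with array weights or with only 2 groups. Without single arrays these numbers were 0 to 2, 0 to 1 and 0 to 3.

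Genes called over the array, 27 against placebo, numbered 16 with the mean of probe sets, 62 at an adjusted p under 0.1, 71 with placebo and beta-titled pooled, 357 with array weights and 8 to 74 without single arrays. Against estradiol, where 2 were called, there were 4 without a filter, 4 with a mean above 8, 0 with the mean of probe sets, 20 with array weights, 6 at 0.1 and 0 to 11 without single arrays. Against the beta-titled group, where 21 were called, there were 32 after quantile normalization, 13 after median centring, 122 with array weights, 46 with only 2 groups, 34 at 0.1 and 7 to 37 without single arrays. Estradiol minus placebo and estradiol minus beta-titled gave 0 to 1 genes without single arrays, and no other alternative run for them, nor any for beta-titled minus placebo, called a gene.

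Signs turned in some differences that had not passed. Among all alternatives run, apart from leaving out arrays, these were Col6a2 in estradiol minus beta-titled after quantile normalization (−0.031), Col14a1 in beta-titled minus placebo after median centring (−0.031), and with array weights Col6a3 in estradiol minus beta-titled (0.041) and Col6a1 in beta-titled minus placebo (−0.079). Without single arrays, beta-titled minus placebo ran from −0.078 to 0.076 for Col14a1, −0.067 to 0.159 for Col6a1 and −0.029 to 0.169 for Col6a3, estradiol minus beta-titled from −0.037 to 0.125 for Col14a1, −0.055 to 0.135 for Col6a2 and −0.063 to 0.077 for Col6a3, and estradiol minus placebo from −0.033 to 0.135 for Col14a1 and −0.038 to 0.16 for Col6a3. The cause of these shifts was not tested. Titles share replicate numbers between groups, but of 17 same-numbered pairs 6 had deviations that correlated over 0.1 (median −0.02). Of 133 pairs with different numbers 44 did (median 0.01), so the numbers were not taken as pairs. With the replicate block 23 genes were called against placebo, 2 against estradiol and 17 against the beta-titled group, with 2, 1 and 2 members.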

Other observations

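The SD of Col8a1 was 0.04 log2 units in the beta-titled group and 0.33 with placebo, and 0.0414% of tested genes had a lower ratio of these SDs. Col14a1 had SDs of 0.07 in the beta-titled group and 0.25 with placebo, with 1.4% of tested genes lower. Col6a2 and Col15a1 went the other way, with SDs of 0.31 and 0.18 in the beta-titled group and 0.11 and 0.08 with placebo. The median SD over all tested genes was 0.13 in the beta-titled group and 0.12 with placebo. These SDs are of the probe set that represented each gene. The other Col8a1 probe set above the filter, 1418440_at, had SDs of 0.11 in the beta-titled group and 0.14 with placebo. The other Col14a1 probe set above the filter, 1428455_at, had 0.08 and 0.11. The wide gaps between the SDs of Col8a1 and Col14a1 were therefore not seen in these probe sets.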
